A study of Mus musculus with 4 samples.

Results

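The Pi16 Dpp4 adventitial fibroblast progenitors of dystrophic mouse muscle were 539 of the 31077 cell barcodes that passed the cell filter, which asked for 500 or more UMIs from 300 or more genes and allowed up to 15% of UMIs from mitochondrial transcripts. A UMI is a molecular tag that counts 1 captured mRNA molecule once. A barcode was a member when it held at least 1 UMI of Pdgfra, at least 10 of Dcn, at least 1 of Pi16, at least 2 of Dpp4 and Sema3c together and fewer than 5 of Cthrc1, Tnc and Lrrc15 together, with no UMI of Ptprc, Cdh5 or Tnmd. Members were therefore chosen by measured values, and the genes of this rule are given below as a description only. There were 185 members in the diaphragm and 51 in the quadriceps of mdx5cv/Ccr2-/- mice, and 235 in the diaphragm and 68 in the quadriceps of mdx5cv mice. Members were set against the other 8635 fibroblast barcodes, which met the Pdgfra, Dcn, Ptprc, Cdh5 and Tnmd conditions and failed another one.

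The study compared muscle mononuclear cells of mdx5cv/Ccr2-/- mice with those of mdx5cv mice, all aged 14 weeks, by droplet single-cell RNA-seq (10x Genomics 3′ chemistry), with 1 library per genotype and muscle. Both genotypes carry the mdx5cv allele of Dmd, so both lack dystrophin and model Duchenne muscular dystrophy. The mdx5cv/Ccr2-/- mice in addition lack Ccr2, the receptor through which monocytes leave the bone marrow and enter tissue. No dystrophin-sufficient muscle was analysed here, and the sources used here give neither the number of animals per library nor the deleted part of Ccr2. Each group is a single library, so differences could not be checked against replicates and no test was run. The exact binomial (Clopper-Pearson) 95% intervals below cover counting error only.

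Fibro-adipogenic progenitors are the Pdgfra-expressing mesenchymal cells of muscle and the main source of its fibrous matrix after injury. One of their states lies in the connective tissue around larger vessels and between fascicles. It expresses the secreted protease inhibitor-like protein Pi16, the surface peptidase Dpp4 and the guidance factor Sema3c, and in several mouse tissues such cells can give rise to other fibroblast states. Cthrc1, Tnc and Lrrc15, which the rule kept low, mark matrix-producing activated fibroblasts.

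Libraries held 56399477 to 92189580 UMIs. Between 7 and 28 filtered barcodes were shared by any pair of libraries, and 0 of them were members. Median UMIs per member were 11547 in the mdx5cv/Ccr2-/- diaphragm, 7972 in the mdx5cv diaphragm, 10635 in the mdx5cv/Ccr2-/- quadriceps and 12759.5 in the mdx5cv quadriceps. Summed over members, the libraries gave 2197111, 2011167, 547720 and 924310 UMIs in the same order, so the quadriceps values rest on the fewest molecules. As a check of the genotype labels, Ccr2 stood in Ptprc-positive (leukocyte) barcodes at 60.1 CPM (UMIs of a gene per 1000000 UMIs of the same cells) in the mdx5cv/Ccr2-/- diaphragm against 527 CPM in the mdx5cv diaphragm, and at 57.5 CPM in the mdx5cv/Ccr2-/- quadriceps against 586 CPM in the mdx5cv quadriceps. The remaining Ccr2 UMIs in mdx5cv/Ccr2-/- libraries cannot be placed relative to the deleted part. Members themselves held 0 Ccr2 UMIs in both mdx5cv/Ccr2-/- libraries, against 6 in the mdx5cv diaphragm and 1 in the mdx5cv quadriceps.

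Of the markers behind the label, only Cd248 stood outside the rule, and it was higher in members than in other fibroblasts of all 4 libraries. CPM values were computed from UMIs summed over the members, or over the other fibroblasts, of a library. Cd248 (endosialin), a marker that took no part in the rule, had 572 CPM in members and 90.3 CPM in other fibroblasts of the mdx5cv/Ccr2-/- diaphragm, and 599.7 CPM in members and 95.9 CPM in other fibroblasts of the mdx5cv diaphragm. In the quadriceps Cd248 had 597 CPM in members and 134 CPM in other fibroblasts of mdx5cv/Ccr2-/- mice, and 543 CPM in members and 146 CPM in other fibroblasts of mdx5cv mice. Its level in members thus lay within a narrow range over genotypes and muscles. Dpp4 and Sema3c were part of the rule, so their levels only describe the choice of members. Dpp4 stood at 198 and 263 CPM in members of the mdx5cv/Ccr2-/- diaphragm and quadriceps and at 241 and 301 CPM in those of the mdx5cv diaphragm and quadriceps, while other fibroblasts had 4.87 to 8.81 CPM. Sema3c stood at 416 and 666 CPM in members of the mdx5cv/Ccr2-/- diaphragm and quadriceps and at 459.9 and 660 CPM in those of the mdx5cv diaphragm and quadriceps, while other fibroblasts had 3.25 to 31.6 CPM.

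Pi16 separated members from other fibroblasts far less in the diaphragm than in the quadriceps. A Pi16 UMI was found in 83.9% of fibroblast barcodes of the mdx5cv/Ccr2-/- diaphragm and 75.3% of those of the mdx5cv diaphragm, but in 33.2% and 32.9% of those of the mdx5cv/Ccr2-/- and mdx5cv quadriceps. Thinned to 4000 UMIs per barcode, Pi16 was found in 71.4% and 66.4% of other fibroblasts of the mdx5cv/Ccr2-/- and mdx5cv diaphragm and in 17.1% and 13.9% of those of the mdx5cv/Ccr2-/- and mdx5cv quadriceps. Ptprc-positive barcodes, which should lack Pi16, reached 1.47% to 2.73% at the same depth. Further Pi16-positive fibroblasts held no Dpp4 or Sema3c UMI, counted only among those with fewer than 5 UMIs of Cthrc1, Tnc and Lrrc15 together. They numbered 1730 and 2854 in the mdx5cv/Ccr2-/- and mdx5cv diaphragm, and 142 and 101 in the mdx5cv/Ccr2-/- and mdx5cv quadriceps. Both Dpp4 and Sema3c were detected in 95 of 185 members of the mdx5cv/Ccr2-/- diaphragm, 148 of 235 of the mdx5cv diaphragm, 37 of 51 of the mdx5cv/Ccr2-/- quadriceps and 45 of 68 of the mdx5cv quadriceps.

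The boundary of the rule was not sharp. Members with exactly 2 UMIs of Dpp4 and Sema3c numbered 61 in the mdx5cv/Ccr2-/- diaphragm, 70 in the mdx5cv diaphragm, 10 in the mdx5cv/Ccr2-/- quadriceps and 14 in the mdx5cv quadriceps. Just outside, Pi16-positive fibroblasts with 1 such UMI numbered 150, 250, 22 and 32 in the same libraries. These, and the fibroblasts with 0 below, were counted only with fewer than 5 UMIs of Cthrc1, Tnc and Lrrc15 together. Cd248 stood at 371, 354, 297 and 306 CPM in the members with 2 UMIs and at 200.1, 214, 344 and 226 CPM in the fibroblasts with 1. Members with more than 2 had 658, 681, 671 and 615 CPM, and Pi16-positive fibroblasts with 0 had 88, 90.7, 136 and 128 CPM. Except between 2 and 1 UMIs in the mdx5cv/Ccr2-/- quadriceps, Cd248 was lower at each step down.

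Members made up 6.83% (5.91% to 7.84%) of fibroblast barcodes in the mdx5cv/Ccr2-/- diaphragm and 4.92% (4.32% to 5.57%) in the mdx5cv diaphragm. In the quadriceps they made up 5.56% (4.17% to 7.25%) in mdx5cv/Ccr2-/- mice and 8.84% (6.93% to 11.1%) in mdx5cv mice. The share was thus higher without Ccr2 in the diaphragm, with a ratio of 1.39 (1.14 to 1.69), and lower without Ccr2 in the quadriceps, with a ratio of 0.629 (0.429 to 0.918). Depth moved with the first of these. Fibroblasts other than members had a median of 10015 UMIs in the mdx5cv/Ccr2-/- and 6596 UMIs in the mdx5cv diaphragm. The rule asks for set numbers of UMIs, and the part of depth in the share difference was not tested. With every barcode thinned to 4000 UMIs, shallower fibroblasts were left out: 112, 752, 36 and 32 in the order of the shares below. The Pdgfra, Dcn, Ptprc, Cdh5 and Tnmd conditions were then applied to the thinned UMIs. In the same order, 2350, 3633, 580 and 612 barcodes met them, against 2709, 4779, 917 and 769 before thinning. The shares were 3.74% in the mdx5cv/Ccr2-/- diaphragm, 3.55% in the mdx5cv diaphragm, 4.31% in the mdx5cv/Ccr2-/- quadriceps and 6.37% in the mdx5cv quadriceps. The ratio then was 1.05 (0.795 to 1.39) in the diaphragm and 0.676 (0.392 to 1.15) in the quadriceps, and both intervals include equality. At 2000 UMIs, with 8 to 62 members among 366 to 3396 fibroblast barcodes per library, the diaphragm ratio turned to 0.916 (0.579 to 1.43). The quadriceps ratio was 0.393 (0.151 to 0.918). In mdx5cv mice the diaphragm share was lower than the quadriceps share both before thinning (ratio 0.556, 0.423 to 0.74) and at 4000 UMIs (0.557, 0.387 to 0.819). Without Ccr2 the same ratio was 1.23 (0.896 to 1.71) before thinning and 0.869 (0.552 to 1.41) at 4000 UMIs, so no direction was resolved. The direction depends on the denominator. Of all barcodes past the filter, members made up 2.87% in the mdx5cv/Ccr2-/- diaphragm and 1.87% in the mdx5cv diaphragm, and 0.749% in the mdx5cv/Ccr2-/- quadriceps and 1.3% in the mdx5cv quadriceps. On this basis the diaphragm share was above the quadriceps share, with a ratio of 3.83 (2.8 to 5.33) in mdx5cv/Ccr2-/- and 1.44 (1.09 to 1.91) in mdx5cv mice, and of 3.13 (1.99 to 5.1) and 1.4 (0.972 to 2.06) at 4000 UMIs. The genotype ratio on this basis was 1.54 (1.26 to 1.87) in the diaphragm and 0.577 (0.393 to 0.842) in the quadriceps, and 1.15 (0.865 to 1.52) and 0.513 (0.298 to 0.869) at 4000 UMIs.

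**Figure D1:**
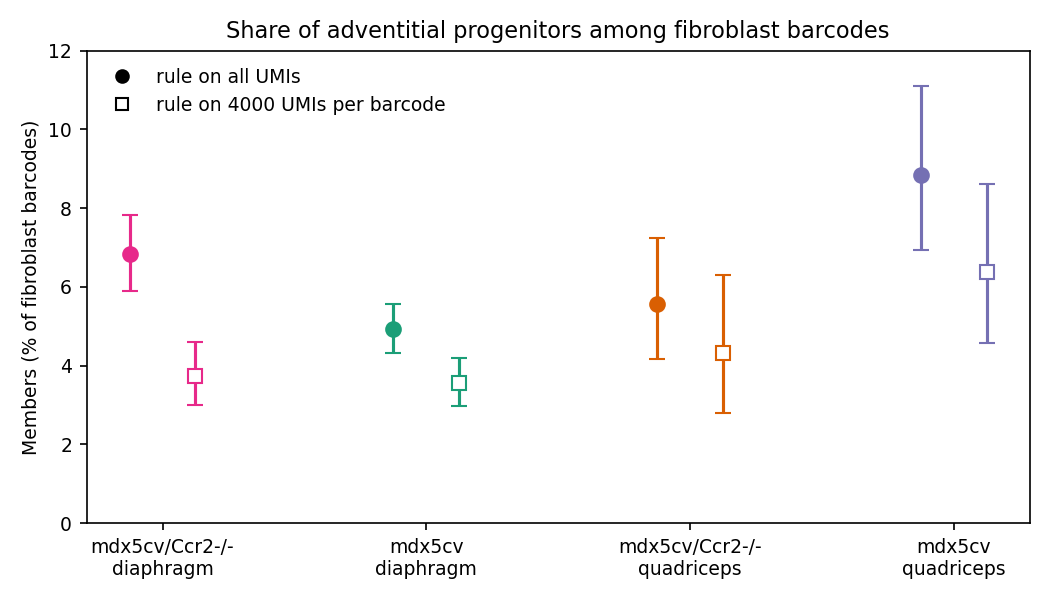
Members as a percentage of fibroblast barcodes (vertical axis) in each of the 4 libraries (horizontal axis), with the rule applied to all UMIs (filled circles) and to 4000 UMIs per barcode (open squares). Bars are exact binomial 95% intervals, and the diaphragm difference of 6.83% against 4.92% narrows to 3.74% against 3.55% at equal depth.

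Beyond the rule, members differed from other fibroblasts of the same library in a large set of genes. Of 5885 genes with a mean of at least 20 CPM over both populations (rule genes left out), 196 were at least 1.5-fold higher in members in all 4 libraries (3.33%) and 121 at least 1.5-fold lower (2.06%). All fold thresholds here and below refer to log2 ratios computed with 5 CPM added to both levels. Because the rule chose the members on UMIs of the same cells, these counts describe the members and are no test. The other fibroblasts included those with 5 or more UMIs of Cthrc1, Tnc and Lrrc15 together. These held 5933202 of 28637600 UMIs of other fibroblasts in the mdx5cv/Ccr2-/- diaphragm and 6540482 of 35245778 in the mdx5cv diaphragm. In the quadriceps they held 9081045 of 14175132 in mdx5cv/Ccr2-/- and 6196474 of 12264254 in mdx5cv mice. Their part in the ratios below, those of collagens included, was not tested. Of 24 measured genes of a list of adventitial progenitor markers, 21 were past 1.5-fold higher in all 4 libraries and 0 lower. The median log2 ratio of this list was 2.33 in the mdx5cv/Ccr2-/- diaphragm, 2.48 in the mdx5cv diaphragm, 2.52 in the mdx5cv/Ccr2-/- quadriceps and 2.38 in the mdx5cv quadriceps, against a median of -0.03 over all genes and libraries. The exceptions were Mfap5, which was under 1.5-fold in each library, and Has1 and Tppp3, which did not pass it in the mdx5cv quadriceps. Wnt2, Axin2 and Bmp7 were too low to be measured, and Nt5e had 4 UMIs in all.

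Smpd3, which encodes neutral sphingomyelinase 2, had 101 and 113 CPM in members of the mdx5cv/Ccr2-/- and mdx5cv diaphragm and 84 and 172 CPM in those of the mdx5cv/Ccr2-/- and mdx5cv quadriceps, against 0.494 to 3.26 CPM in other fibroblasts. Efhd1, a mitochondrial calcium-binding protein, had 73.3 and 86 CPM in members of the mdx5cv/Ccr2-/- and mdx5cv diaphragm and 133 and 106 CPM in those of the mdx5cv/Ccr2-/- and mdx5cv quadriceps, against 1.08 to 3.67 CPM in other fibroblasts. Levels in the members lay far above those of the other fibroblasts in every library for both genes. At 4000 UMIs Smpd3 was nevertheless detected in 18.7% to 34.3% of the members of a library, against 0.241% to 0.893% of other fibroblasts and 0.606% to 1.17% of Ptprc-positive barcodes. Cmah, the enzyme that makes N-glycolylneuraminic acid, had 61 and 51.7 CPM in members of the mdx5cv/Ccr2-/- and mdx5cv diaphragm and 87.6 and 60.6 CPM in those of the mdx5cv/Ccr2-/- and mdx5cv quadriceps, against 1.25 to 3.02 CPM in other fibroblasts. The cell adhesion molecules Cadm3 and Opcml, the epidermal secreted protein Sbsn, the lipases Pla1a and Mgll, the carbonic anhydrase-related Car8 and the small GTPase Arl4d completed the 15 genes with the largest ratio alongside those described below.

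Among receptors, Ackr3, the scavenging receptor for Cxcl12, had 286 and 211 CPM in members of the mdx5cv/Ccr2-/- and mdx5cv diaphragm and 221 and 225 CPM in those of the mdx5cv/Ccr2-/- and mdx5cv quadriceps. Other fibroblasts had 42.3 and 25.6 CPM of Ackr3 in the mdx5cv/Ccr2-/- and mdx5cv diaphragm and 8.47 and 22 CPM in the mdx5cv/Ccr2-/- and mdx5cv quadriceps. Tek, the angiopoietin receptor best known from endothelium, stood at 65.1 to 73.6 CPM in members and at 6.91 to 10.3 CPM in other fibroblasts. Members had no Cdh5 UMI by the rule, and their summed CPM over 10 other endothelial markers was 29.2 to 94.9, against 40.3 to 61.1 in other fibroblasts. Of 29 measured surface receptors, 4 were past the fold higher and 1 lower. The transcription factors Klf4 (434 to 582 CPM in members, 42.5 to 121 CPM in other fibroblasts) and Ebf2 (221 to 321 CPM in members, 48 to 106 CPM in other fibroblasts) were also higher in members of each library.

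Matrix genes divided by kind. Among fibrillar collagens, 2 of 6 were past the fold lower and 0 higher. Col1a1, a chain of type I collagen, had 3258 and 2527 CPM in members of the mdx5cv/Ccr2-/- and mdx5cv diaphragm and 4539 and 3935 CPM in those of the mdx5cv/Ccr2-/- and mdx5cv quadriceps. Other fibroblasts had 7509 and 6233 CPM of Col1a1 in the mdx5cv/Ccr2-/- and mdx5cv diaphragm and 12334 and 7921 CPM in the mdx5cv/Ccr2-/- and mdx5cv quadriceps. The other was Col5a2, a chain of type V collagen (527 to 1231 CPM in members, 1038 to 2110 CPM in other fibroblasts). Elastic fibre genes went both ways, with 6 of 17 past the fold higher and 4 lower. Efemp1 (fibulin-3) had 259 to 393 CPM in members and 15 to 37.8 CPM in other fibroblasts, and Emilin2 had 226 to 254 CPM in members and 21.7 to 39.5 CPM in other fibroblasts. Emilin1 ran the other way, with 38.3 to 67.6 CPM in members and 98.7 to 220.2 CPM in other fibroblasts. Pcolce2, an enhancer of procollagen C-proteinase, had 469 to 528 CPM in members and 26.7 to 65.6 CPM in other fibroblasts.

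Genes of hyaluronan production were higher in members. They include Gfpt2 (183 to 413 CPM in members, 46.4 to 65.7 CPM in other fibroblasts), Ugdh and Uap1, which supply its sugar precursors, and the synthase Has2 (46 to 94.9 CPM in members, 17 to 36.3 CPM in other fibroblasts). These 4 of 10 measured hyaluronan genes were past the fold higher and 0 were lower. Fn1, which encodes fibronectin, was also higher in members of every library, with 2365 to 5791 CPM against 644 to 2754 CPM in other fibroblasts. So was the aggrecanase Adamts5 (784 to 1149 CPM in members, 140.1 to 274 CPM in other fibroblasts).

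Secreted regulators included 4 of 12 measured Wnt pathway genes past the fold higher in members and 0 lower. Sfrp4, a secreted Wnt-binding protein, had 213 to 559 CPM in members and 37.1 to 50.4 CPM in other fibroblasts. Dkk2, a Wnt co-receptor antagonist, had 34.7 to 150.4 CPM in members and 12.1 to 38.2 CPM in other fibroblasts. The adaptor Dact1 and the ligand Wnt5a were the remaining ones. Of 17 measured growth factors and ligands, 5 were higher and 2 lower, and the angiogenic factors Vegfd (31.4 to 99.5 CPM in members, 3.89 to 18.7 CPM in other fibroblasts) and Vegfa (35.3 to 53.3 CPM in members, 4.3 to 11.4 CPM in other fibroblasts) were among the higher ones. Igfbp5, an insulin-like growth factor binding protein, had 869 and 905 CPM in members of the mdx5cv/Ccr2-/- and mdx5cv diaphragm and 2574 and 2455 CPM in those of the mdx5cv/Ccr2-/- and mdx5cv quadriceps, against 144 to 304 CPM in other fibroblasts. Igfbp7 ran the other way, with at most 928 CPM in members and at least 1557 CPM in other fibroblasts. In a list of complement and C1q-related genes, 4 of 13 measured were higher and 0 lower. They were C3, C4b and C1qtnf1, which encode secreted proteins, and Cd55, a membrane inhibitor of complement, with 393 to 593 CPM in members and 26.4 to 102 CPM in other fibroblasts.

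Genes of activated fibroblasts were lower in members. Of 17 measured activated-fibroblast genes that were not in the rule, 9 were past the fold lower and 0 higher, among them the latent TGF-beta binding protein Ltbp2, the matricellular protein Ccn4 and the protease Adam12. The rule set a limit on related genes, so this count follows in part from the choice of members. Cxcl9, an interferon-induced chemokine, had 2.28 and 3.98 CPM in members of the mdx5cv/Ccr2-/- and mdx5cv diaphragm and 3.65 and 5.41 CPM in those of the mdx5cv/Ccr2-/- and mdx5cv quadriceps. Other fibroblasts had 67.6 and 109 CPM of Cxcl9 in the mdx5cv/Ccr2-/- and mdx5cv diaphragm and 94.6 and 74.5 CPM in the mdx5cv/Ccr2-/- and mdx5cv quadriceps. Mgp, an inhibitor of calcification, had 2352 to 4106 CPM in members and 6498 to 11881 CPM in other fibroblasts. Of 22 perivascular and parenchymal fibro-adipogenic progenitor genes, 4 were lower in all 4 libraries and 0 higher: Vcam1, Thbs4, Cxcl14 and Bmp5. The median log2 ratio of this list was -0.83 in the mdx5cv/Ccr2-/- diaphragm, -0.90 in the mdx5cv diaphragm, 0.01 in the mdx5cv/Ccr2-/- quadriceps and -0.53 in the mdx5cv quadriceps. Of 9 measured cell cycle genes 0 were past the fold in either direction, and a UMI of Mki67 or Top2a was found in 2, 2, 1 and 3 members of the mdx5cv/Ccr2-/- diaphragm, mdx5cv diaphragm, mdx5cv/Ccr2-/- quadriceps and mdx5cv quadriceps.

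**Figure D2:**
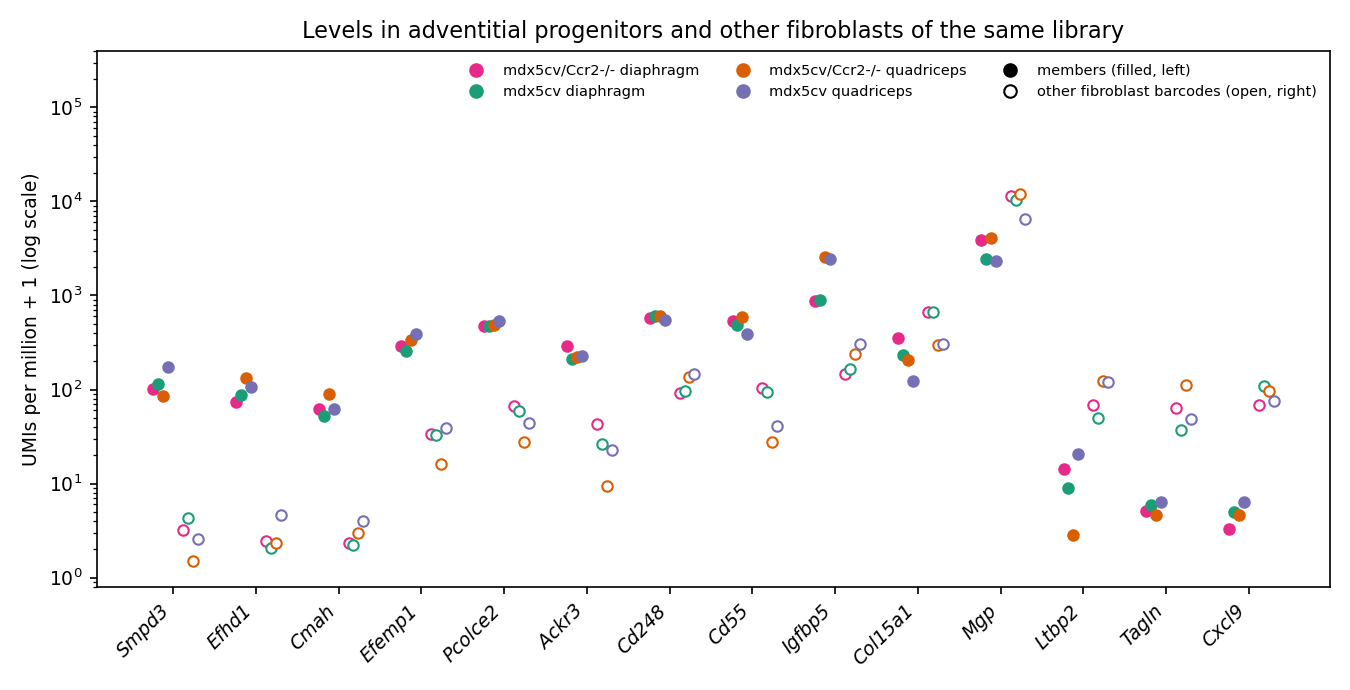
Level of 14 genes (CPM + 1, log axis) in members (filled) and in the other fibroblasts (open) of the same library, with 1 point per library and colours for the 4 libraries. Smpd3, Efhd1 and Cmah are separated most widely, Mgp, Ltbp2, Tagln and Cxcl9 lie lower in members, and the members of all libraries lie close to each other for Cd248 and Pcolce2.

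Members varied widely among themselves. Pi16 in single members had a median of 2548 CPM in the mdx5cv/Ccr2-/- diaphragm (lowest 96.4, highest 11488), 2172 CPM in the mdx5cv diaphragm (53 to 12865), 736 CPM in the mdx5cv/Ccr2-/- quadriceps (57.6 to 8075) and 1565 CPM in the mdx5cv quadriceps (31.3 to 8497). Igfbp5 had a median of 0 CPM in both diaphragm libraries, with single members as high as 12451 CPM in the mdx5cv/Ccr2-/- and 16463 CPM in the mdx5cv diaphragm. Its quadriceps medians were 599 CPM in mdx5cv/Ccr2-/- and 1151 CPM in mdx5cv mice, with single members as high as 24043 and 21216 CPM. The higher summed level of Igfbp5 in the quadriceps therefore came with detection in a larger portion of members: 36 of 51 in mdx5cv/Ccr2-/- and 49 of 68 in mdx5cv mice, against 87 of 185 and 110 of 235 in the mdx5cv/Ccr2-/- and mdx5cv diaphragm.

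Without Ccr2, few genes of the members differed in the same direction in both muscles. Of 5831 measured genes (mean of at least 20 CPM and at least 50 UMIs over the members of the 4 libraries), 26 were at least 1.5-fold higher in mdx5cv/Ccr2-/- than in mdx5cv members of both muscles (0.446%) and 25 at least 1.5-fold lower (0.429%). In the diaphragm alone 126 were higher (2.16%) and 145 lower (2.49%). In the quadriceps alone, with fewer members, 601 were higher (10.3%) and 306 lower (5.25%), around an all-gene median log2 ratio of 0.08 (0.03 in the diaphragm). In other fibroblasts 2 genes were higher (0.0343%) and 11 lower (0.189%) in both muscles. They shared 1 and 3 genes with the members, which is 3.85% and 12% of the members' genes and 50% and 27.3% of those of the other fibroblasts. These counts depend on how members are chosen: with the rule applied at 4000 UMIs per barcode, 43 genes were higher and 35 lower in both muscles, of which 6 and 6 were among the genes just counted.

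Ifi202b, an interferon-inducible gene on chromosome 1 (GRCm38 173962568 to 173982744, minus strand), showed the largest ratio in both muscles. Members held 429 UMIs (195 CPM) in the mdx5cv/Ccr2-/- diaphragm against 0 in the mdx5cv diaphragm, and 106 UMIs (194 CPM) in the mdx5cv/Ccr2-/- quadriceps against 0 in the mdx5cv quadriceps. It was at least 131-fold higher in the diaphragm and at least 59.6-fold higher in the quadriceps, with 3 UMIs per library taken as the limit of a count of 0. Other fibroblasts showed the same, with 185 CPM in the mdx5cv/Ccr2-/- against 0.0284 CPM in the mdx5cv diaphragm and 187 CPM in the mdx5cv/Ccr2-/- against 0 CPM in the mdx5cv quadriceps, so this difference was not particular to the members. Ptprc-positive barcodes had 109 CPM in the mdx5cv/Ccr2-/- against 0.202 CPM in the mdx5cv diaphragm and 98.7 CPM in the mdx5cv/Ccr2-/- against 0.0455 CPM in the mdx5cv quadriceps. The sources used here do not state the background strain of either line, so strain and loss of Ccr2 cannot be told apart in this or any other genotype ratio. Of the 7 measured genes of the Ifi200 family, Ifi202b was the only one past the fold higher in both muscles. Wdfy1, a phosphoinositide-binding adaptor, was lower in both: 20 CPM in the mdx5cv/Ccr2-/- against 50.7 CPM in the mdx5cv diaphragm (ratio 0.395, 0.271 to 0.568), and 18.3 CPM in the mdx5cv/Ccr2-/- against 44.4 CPM in the mdx5cv quadriceps (0.412, 0.184 to 0.836). In other fibroblasts the Wdfy1 ratio was 0.38 in the diaphragm and 0.429 in the quadriceps. Ifi202b, Wdfy1 and Hspb1 were past 1.5-fold in both muscles under all 16 alternative settings, of which 2 concern the gene filter and cannot change the ratio of a single gene.

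The 10 genes with the largest increase in both muscles included several secreted proteins. Enpp2 (autotaxin), the enzyme that makes lysophosphatidic acid, had 77.8 CPM in the mdx5cv/Ccr2-/- against 39.8 CPM in the mdx5cv diaphragm (1.96, 1.49 to 2.58) and 137 CPM in the mdx5cv/Ccr2-/- against 51.9 CPM in the mdx5cv quadriceps (2.64, 1.81 to 3.87). Other fibroblasts had Enpp2 ratios of 0.899 in the diaphragm and 0.434 in the quadriceps; whether members and other fibroblasts differ in their genotype ratio was not tested. Enpp2 kept its direction in both muscles under all 16 alternatives and fell short of 1.5-fold in 1 of them in each muscle. Mfap4, a microfibril-associated glycoprotein, had 507 CPM in the mdx5cv/Ccr2-/- against 291 CPM in the mdx5cv diaphragm (1.74, 1.57 to 1.93) and 204 CPM in the mdx5cv/Ccr2-/- against 77.9 CPM in the mdx5cv quadriceps (2.63, 1.94 to 3.58), with ratios of 1.18 and 2 in other fibroblasts of the diaphragm and quadriceps.

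Pthlh, parathyroid hormone-related protein, had 56 CPM in the mdx5cv/Ccr2-/- against 23.9 CPM in the mdx5cv diaphragm (2.35, 1.67 to 3.35) and 102 CPM in the mdx5cv/Ccr2-/- against 19.5 CPM in the mdx5cv quadriceps (5.25, 3.04 to 9.49). At 2000 UMIs per barcode, with 8 to 62 members per library, both Pthlh ratios turned. Angptl7, a secreted angiopoietin-like protein, had 91.5 CPM in the mdx5cv/Ccr2-/- against 25.4 CPM in the mdx5cv diaphragm (3.61, 2.64 to 5.01), while its quadriceps values rested on 5 UMIs in mdx5cv/Ccr2-/- and 1 UMI in mdx5cv mice (8.44, 0.944 to 399). Zmat3, Slc7a2, Itga1 and Kremen1 were also among the 10, and the first 3 of them turned direction in the quadriceps or the diaphragm in at least 1 alternative. The matrix genes Mgp (3906 CPM in the mdx5cv/Ccr2-/- against 2455 CPM in the mdx5cv diaphragm, 4106 CPM in the mdx5cv/Ccr2-/- against 2352 CPM in the mdx5cv quadriceps) and Aspn, which encodes asporin (1823 CPM against 1163 CPM in the diaphragm and 1044 CPM against 624 CPM in the quadriceps of mdx5cv/Ccr2-/- and mdx5cv mice), were also past the fold in both muscles.

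Gene lists differed in how many of their genes were past the threshold in a single muscle. Of 6 fibrillar collagens 0 were past 1.5-fold in either muscle, with median log2 ratios of 0.39 in the diaphragm and 0.33 in the quadriceps. The quadriceps median kept its direction in 14 of 16 alternatives and reached -0.44 at 2000 UMIs per barcode. Among them Col3a1, the type III collagen chain, had 7654 CPM in the mdx5cv/Ccr2-/- against 5672 CPM in the mdx5cv diaphragm, and 14460 CPM in the mdx5cv/Ccr2-/- against 10319 CPM in the mdx5cv quadriceps. Of 25 measured adventitial progenitor markers 0 were higher and 0 lower in both muscles, against 0.446% and 0.429% of all measured genes. In the diaphragm alone 0 were higher and 2 lower (median -0.06). In the quadriceps alone 4 were higher and 2 lower (median -0.03). Of 22 type I interferon response genes 0 were past the fold in the diaphragm, and 3 were higher and 6 lower in the quadriceps. Of 15 interferon gamma and MHC class I genes 0 were past the fold in the diaphragm, and 0 were higher and 4 lower in the quadriceps.

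Immediate early and heat shock genes, which are induced by stimuli in the animal and also during enzymatic dissociation of tissue, were lower in members of the mdx5cv/Ccr2-/- diaphragm. Of 21 immediate early genes 17 were past 1.5-fold lower in the diaphragm and 0 higher (median log2 ratio -1.24), and of 14 heat shock genes 12 were lower and 0 higher (median -0.85). In the quadriceps 6 immediate early genes were higher and 1 lower (median 0.34), and 0 heat shock genes were higher and 3 lower (median -0.23). The immediate early median of the quadriceps turned to -0.14 when members with macrophage UMIs were left out. Hspb1, a small heat shock protein, had 922 CPM in the mdx5cv/Ccr2-/- against 2204 CPM in the mdx5cv diaphragm (0.418, 0.397 to 0.441) and 27.4 CPM in the mdx5cv/Ccr2-/- against 71.4 CPM in the mdx5cv quadriceps (0.384, 0.203 to 0.679). Fos, a subunit of the transcription factor AP-1, had 456 CPM in the mdx5cv/Ccr2-/- against 1227 CPM in the mdx5cv diaphragm (0.371, 0.345 to 0.4) and 43.8 CPM in the mdx5cv/Ccr2-/- against 82.2 CPM in the mdx5cv quadriceps (0.533, 0.322 to 0.853). The ratios in other fibroblasts were 0.548 and 0.652 for Hspb1 and 0.634 and 1.19 for Fos in the diaphragm and quadriceps. Of 13 glucocorticoid target and metallothionein genes 8 were also lower in the diaphragm and 0 higher. Members of the mdx5cv diaphragm were the shallowest, and the part of depth, handling and dissociation in these differences was not tested.

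In the diaphragm alone, Cxcl13, a chemokine for B cells, had 221 CPM in the mdx5cv/Ccr2-/- against 35.8 CPM in mdx5cv members (6.18, 4.82 to 8.03). In the quadriceps it had 181 CPM in mdx5cv/Ccr2-/- and 227 CPM in mdx5cv members (0.796, 0.62 to 1.02). Cxcl13 UMIs were held by 17 of 185 members in the mdx5cv/Ccr2-/- diaphragm and by 13 of 235 in the mdx5cv diaphragm, and 1 member alone held 30.5% and 47.2% of them. Ccl2, a ligand of Ccr2, had 6.37 CPM in the mdx5cv/Ccr2-/- against 113 CPM in mdx5cv members of the diaphragm (0.0565, 0.0304 to 0.0967). In the quadriceps Ccl2 ran the other way, with 215 CPM in mdx5cv/Ccr2-/- against 121 CPM in mdx5cv members (1.78, 1.36 to 2.32), and 1 member of each library held 66.1% of its UMIs in mdx5cv/Ccr2-/- and 95.5% in mdx5cv mice. Chemokine and inflammatory genes of the diaphragm were lower in 9 of 22 and higher in 2. Among all named genes, those with the smallest diaphragm ratios were Ttn, Actc1, Acta1 and Mylpf, which encode sarcomere proteins. A single mdx5cv diaphragm member held 870 myofibre UMIs, while no other library had a member with more than 12. In the quadriceps alone, 3 of 15 Wnt pathway genes were lower without Ccr2 and 1 higher. Sfrp2 had 29.2 CPM in mdx5cv/Ccr2-/- against 146 CPM in mdx5cv members (0.2, 0.111 to 0.337), and Dkk2 had 34.7 CPM in mdx5cv/Ccr2-/- against 150.4 CPM in mdx5cv members (0.231, 0.135 to 0.374). In the diaphragm the ratio was 0.776 for Sfrp2 and 0.845 for Dkk2. Slc4a4, a bicarbonate transporter, had 25.6 CPM in mdx5cv/Ccr2-/- against 106 CPM in mdx5cv members of the quadriceps (0.241, 0.127 to 0.424) and a ratio of 1.01 in the diaphragm. C1qtnf3 was the highest after Ifi202b, with 234 CPM in mdx5cv/Ccr2-/- against 10.8 CPM in mdx5cv members of the quadriceps, from 9 of 51 and 5 of 68 members. A single mdx5cv/Ccr2-/- member held 51.6% of its UMIs there, and its direction turned at 2000 UMIs per barcode.

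**Figure D3:**
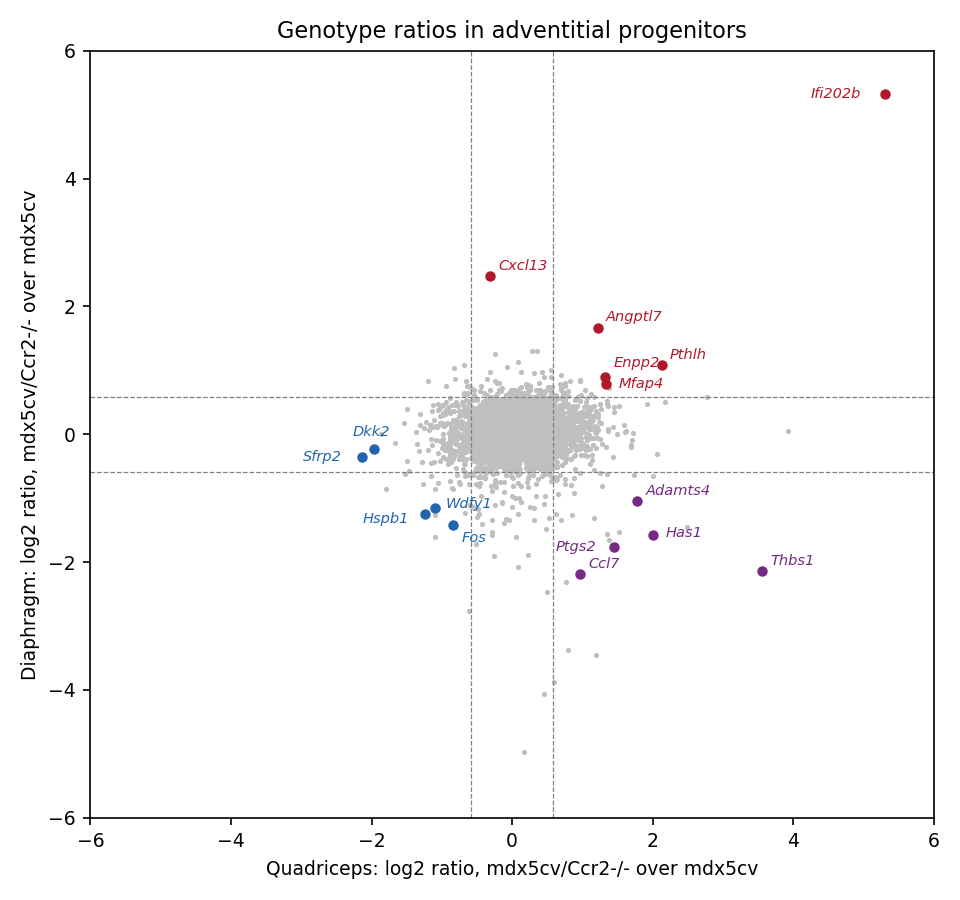
Log2 ratio of mdx5cv/Ccr2-/- over mdx5cv members in the quadriceps (horizontal) and the diaphragm (vertical), with 1 point for each of 5831 measured genes and dashed lines at 1.5-fold. Ifi202b stands alone at the upper right, Pthlh, Angptl7, Enpp2 and Mfap4 follow, Hspb1, Wdfy1 and Fos lie at the lower left, and the purple genes lie on opposite sides in the 2 muscles.

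Past 1.5-fold in opposite directions in the 2 muscles were 48 genes (0.823% of 5831). Thbs1, thrombospondin-1, had 12.3 CPM in the mdx5cv/Ccr2-/- against 71.1 CPM in the mdx5cv diaphragm (0.173, 0.11 to 0.262) and 206 CPM in the mdx5cv/Ccr2-/- against 13 CPM in the mdx5cv quadriceps (15.9, 8.75 to 31.7). Has1, a hyaluronan synthase, had 60.1 CPM in the mdx5cv/Ccr2-/- against 189 CPM in the mdx5cv diaphragm (0.317, 0.258 to 0.388) and 89.5 CPM in the mdx5cv/Ccr2-/- against 18.4 CPM in the mdx5cv quadriceps (4.86, 2.75 to 9.01). The quadriceps side of both rested largely on 1 member of the mdx5cv/Ccr2-/- library, with 16559 UMIs. It held 98 of 113 Thbs1 UMIs, 32 of 49 of Has1, 65 of 92 of Tnfaip6, 69 of 79 of Ccl7 and 17 of 21 of Ptgs2. With the highest member of each library left out gene by gene, the quadriceps log2 ratio was 1.14 for Thbs1 and 1.19 for Has1, and it turned to -1.37 for Ccl7 and -0.03 for Ptgs2. The diaphragm side was spread over more cells, and there the log2 ratio was -1.85 for Thbs1 and -1.77 for Has1 on the same terms. At 4000 UMIs Has1 was detected in 9.89% of mdx5cv/Ccr2-/- and 31.1% of mdx5cv members of the diaphragm, against 4.68% and 7.3% of other fibroblasts and 0% and 0.188% of Ptprc-positive barcodes there.

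**Figure D4:**
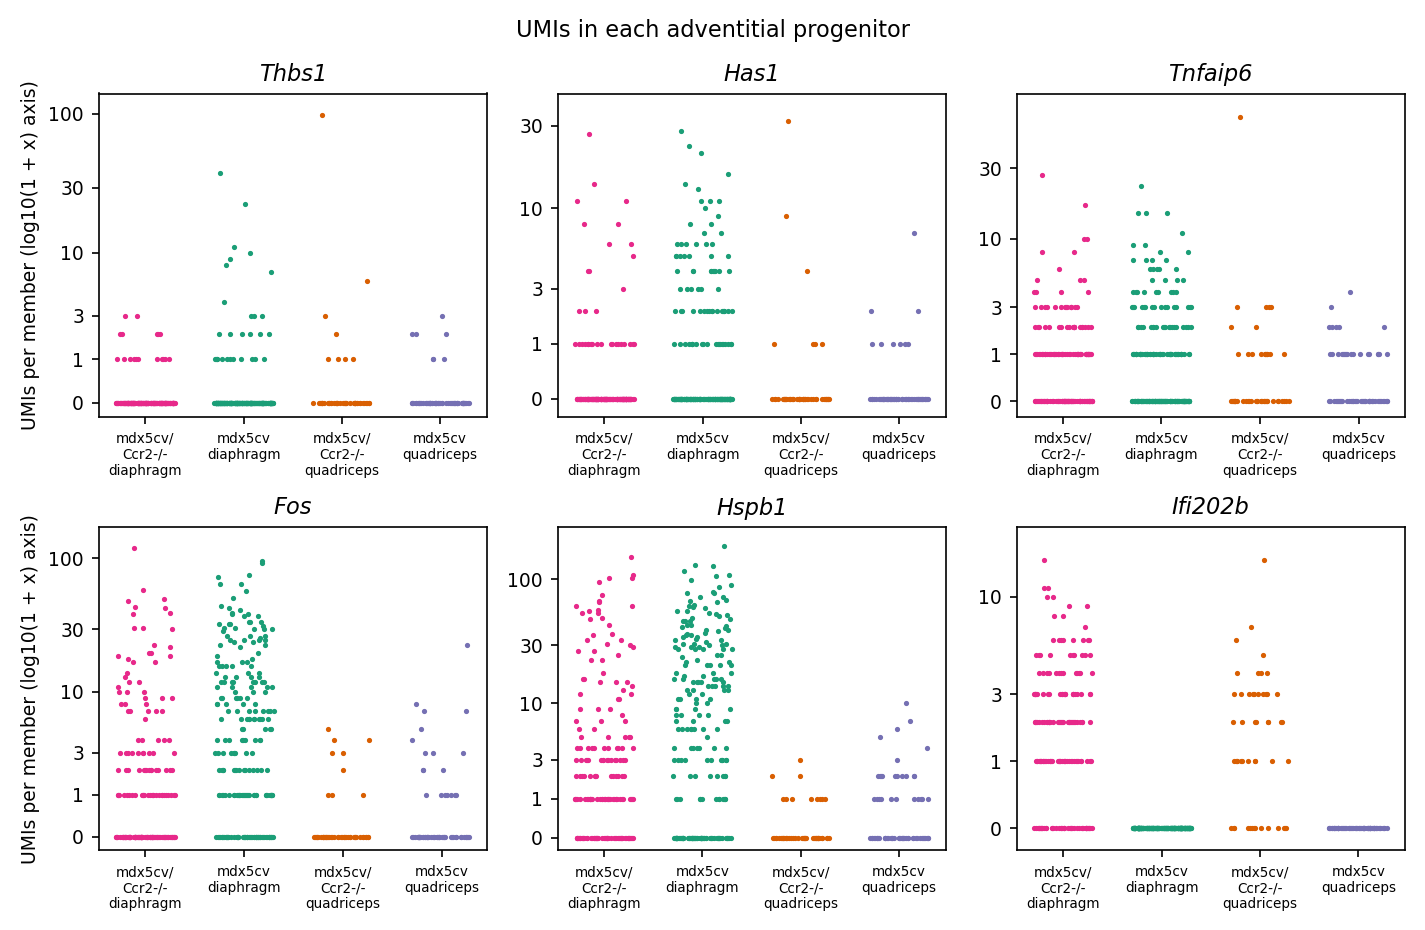
UMIs of 6 genes in each member (log10(1 + x) axis), with 1 point per member in each of the 4 libraries. A single mdx5cv/Ccr2-/- quadriceps member stands above the rest of its library for Thbs1, Has1 and Tnfaip6. Fos and Hspb1 in the diaphragm and Ifi202b in both mdx5cv/Ccr2-/- libraries are spread over many members.

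Diaphragm and quadriceps members differed in positional regulators, stress genes and collagens. Of the 5831 genes, 212 were at least 1.5-fold higher in diaphragm than in quadriceps members of both genotypes (3.64%) and 159 at least 1.5-fold lower (2.73%). In other fibroblasts 307 and 175 of these genes were past the fold, and 113 and 60 were shared with the members, which is 53.3% and 37.7% of the members' genes and 36.8% and 34.3% of those of the other fibroblasts.

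Positional transcription factors separated the muscles. Of 11 measured genes in a list of Hox and other positional regulators, 3 were higher in the diaphragm and 7 lower in both genotypes. Wt1, a transcription factor of mesothelium and of mesenchyme derived from it (chromosome 2, GRCm38 105126529 to 105173616), had 79.2 CPM in the mdx5cv/Ccr2-/- and 79.6 CPM in the mdx5cv diaphragm, against 0 in the quadriceps of both genotypes. It was at least 14.5-fold higher in the diaphragm of mdx5cv/Ccr2-/- and at least 24.5-fold higher in that of mdx5cv mice. At 4000 UMIs Wt1 was found in 26.4% and 25.6% of mdx5cv/Ccr2-/- and mdx5cv diaphragm members, in 9.48% and 8.77% of other fibroblasts and in 0% and 0.141% of Ptprc-positive barcodes there. Gata6 had 75.6 CPM in the mdx5cv/Ccr2-/- and 69.1 CPM in the mdx5cv diaphragm, against 3.65 CPM in the mdx5cv/Ccr2-/- and 2.16 CPM in the mdx5cv quadriceps. The hindlimb-expressed posterior Hox genes ran the other way: Hoxc10 (chromosome 15, GRCm38 102966796 to 102971893) had 0 in the diaphragm of both genotypes, against 62.1 CPM in the mdx5cv/Ccr2-/- and 41.1 CPM in the mdx5cv quadriceps (at least 45.5-fold and at least 27.6-fold lower in the diaphragm). Hoxa10 likewise had 0 in the diaphragm of both genotypes, against 43.8 CPM in the mdx5cv/Ccr2-/- and 46.5 CPM in the mdx5cv quadriceps. Shox2, a limb homeobox gene, had 1.37 CPM in the mdx5cv/Ccr2-/- and 5.47 CPM in the mdx5cv diaphragm, against 65.7 CPM in the mdx5cv/Ccr2-/- and 79 CPM in the mdx5cv quadriceps. The split of Hoxc10 and Gata6 was not particular to the members. In other fibroblasts at 4000 UMIs, Hoxc10 was found in 0% in the diaphragm of both genotypes. It was found in 23.8% and 19.4% in the mdx5cv/Ccr2-/- and mdx5cv quadriceps. Gata6 was found in 15.7% and 11.2% of other fibroblasts of the mdx5cv/Ccr2-/- and mdx5cv diaphragm. Its quadriceps shares were 2.17% and 1.64%.

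Matrix and signalling genes differed too. Col6a5, a collagen VI chain, had 389 CPM in the mdx5cv/Ccr2-/- and 312 CPM in the mdx5cv diaphragm, against 1.83 CPM in the mdx5cv/Ccr2-/- and 11.9 CPM in the mdx5cv quadriceps. Rspo1, an enhancer of Wnt signalling, had 38.7 CPM in the mdx5cv/Ccr2-/- and 41.8 CPM in the mdx5cv diaphragm, against 1.83 CPM in the mdx5cv/Ccr2-/- and 2.16 CPM in the mdx5cv quadriceps. Fibrillar collagens were lower in the diaphragm in 4 of 6 and higher in 0, with a median log2 ratio of -0.78 in both genotypes. Cxcl14, a chemokine, had 12.3 CPM in the mdx5cv/Ccr2-/- and 36.3 CPM in the mdx5cv diaphragm, against 455 CPM in the mdx5cv/Ccr2-/- and 979 CPM in the mdx5cv quadriceps, though its direction turned in mdx5cv mice at 4000 UMIs per barcode and in both genotypes at 2000. S100a4, a calcium-binding protein, had 15.5 CPM in the mdx5cv/Ccr2-/- and 34.8 CPM in the mdx5cv diaphragm, against 267 CPM in the mdx5cv/Ccr2-/- and 266 CPM in the mdx5cv quadriceps. Bmp3, a BMP family ligand, had 4.55 CPM in the mdx5cv/Ccr2-/- and 1.99 CPM in the mdx5cv diaphragm, against 38.3 CPM in the mdx5cv/Ccr2-/- and 42.2 CPM in the mdx5cv quadriceps, while other fibroblasts had at most 0.776 CPM in any library. Among the adventitial markers Procr, the endothelial protein C receptor, had 26.9 CPM in the mdx5cv/Ccr2-/- and 41.8 CPM in the mdx5cv diaphragm, against 152 CPM in the mdx5cv/Ccr2-/- and 166 CPM in the mdx5cv quadriceps. C4b had 72.4 CPM in the mdx5cv/Ccr2-/- and 51.7 CPM in the mdx5cv diaphragm, against 294 CPM in the mdx5cv/Ccr2-/- and 299 CPM in the mdx5cv quadriceps, and other fibroblasts had 26.4 to 44.7 CPM.

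Immediate early and heat shock genes were higher in diaphragm than in quadriceps members, in 12 of 21 and in 8 of 14 genes in both genotypes, and in 0 they were lower. The ratio of Hspb1 was 33.7 (20.4 to 60.3) in mdx5cv/Ccr2-/- and 30.9 (24.2 to 40) in mdx5cv mice. In other fibroblasts it was 3.32 and 3.95 in mdx5cv/Ccr2-/- and mdx5cv mice. Atf3, a stress-induced transcription factor, had 124 CPM in the mdx5cv/Ccr2-/- and 473 CPM in the mdx5cv diaphragm, against 11 CPM in the mdx5cv/Ccr2-/- and 8.66 CPM in the mdx5cv quadriceps. Muscle and library cannot be told apart here, because each muscle of a genotype is 1 library.

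**Figure D5:**
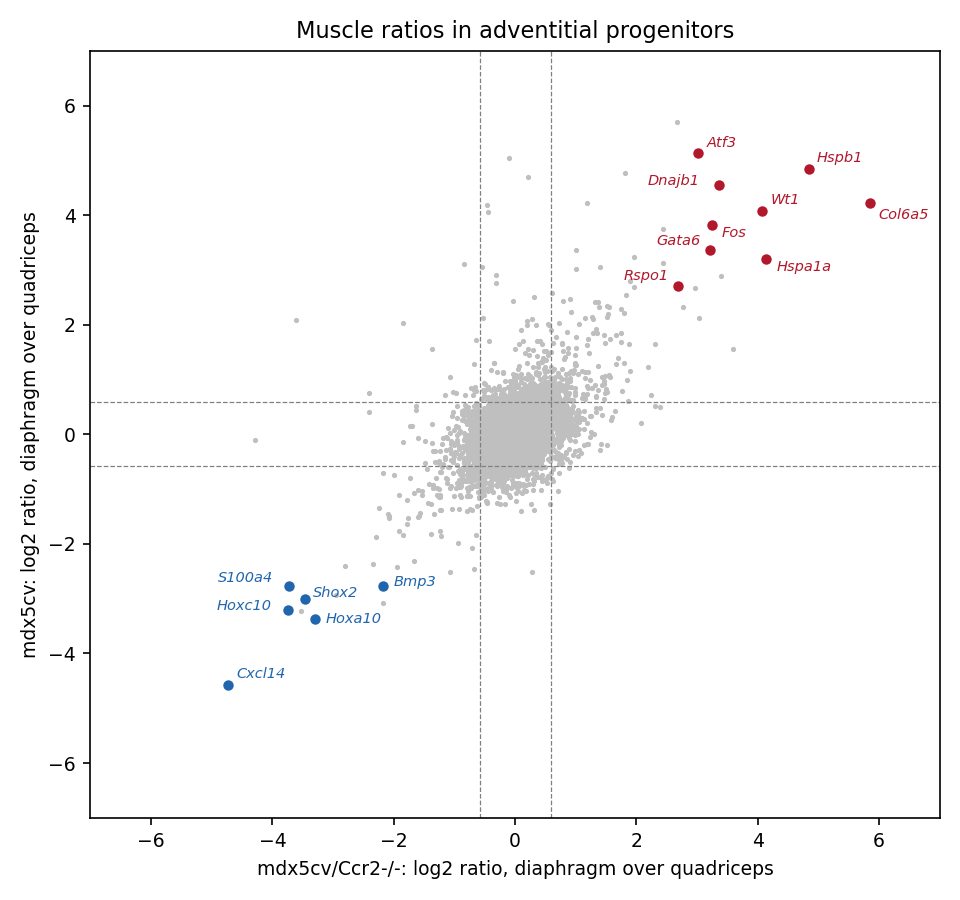
Log2 ratio of diaphragm over quadriceps members in mdx5cv/Ccr2-/- (horizontal) and mdx5cv mice (vertical), with 1 point for each of 5831 measured genes and dashed lines at 1.5-fold. Hspb1, Col6a5 and Wt1 lie at the upper right and Cxcl14, Hoxc10 and Hoxa10 at the lower left, on the same side in both genotypes.

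Markers of most other cells were low in members and unequal over libraries. Tenocyte markers were higher. Summed CPM over 7 of them, Thbs4 included, was 1061 in the mdx5cv/Ccr2-/- and 686 in the mdx5cv diaphragm. It was 1145 in the mdx5cv/Ccr2-/- and 772 in the mdx5cv quadriceps, against 1631 to 2673 in other fibroblasts. Summed CPM over 10 pericyte and smooth muscle markers was 155 in the mdx5cv diaphragm and 50.1 to 56.6 elsewhere. Summed CPM over 15 macrophage and monocyte markers was 51.9 in the mdx5cv/Ccr2-/- against 152 in the mdx5cv diaphragm, and 67.6 in the mdx5cv/Ccr2-/- against 116 in the mdx5cv quadriceps, with 2, 0, 4 and 0 of the markers at 0. Lyz2, one of them, was among the 10 genes lower in both muscles without Ccr2 (15.5 CPM against 57.2 CPM in the diaphragm and 18.3 CPM against 44.4 CPM in the quadriceps of mdx5cv/Ccr2-/- and mdx5cv mice). The part of macrophage RNA in the other genotype differences was not tested. Summed CPM over 11 mesothelial markers was 118 in the mdx5cv/Ccr2-/- and 239.7 in the mdx5cv diaphragm, against 1.83 in the mdx5cv/Ccr2-/- and 4.33 in the mdx5cv quadriceps. This list includes Wt1 and Rspo1, described above, which gave 79.2 and 38.7 CPM of the sum in the mdx5cv/Ccr2-/- and 79.6 and 41.8 CPM in the mdx5cv diaphragm. In the mdx5cv/Ccr2-/- diaphragm 8 of the 11, Msln and Upk3b among them, were at 0, and 8 of 235 mdx5cv diaphragm members held a UMI of the mesothelial genes Msln, Upk3b, Upk1b, Krt19, Lrrn4 or Muc16. No mdx5cv/Ccr2-/- member held one. Without the members that did, the Wt1 log2 ratio of diaphragm over quadriceps was 4.04 in mdx5cv mice, against 4.08 with them. Summed CPM over 12 muscle stem cell and myofibre markers was 41.4 in the mdx5cv/Ccr2-/- and 380.4 in the mdx5cv diaphragm, against 29.2 in the mdx5cv/Ccr2-/- and 20.6 in the mdx5cv quadriceps. The mdx5cv diaphragm members include the 1 with 870 myofibre UMIs described above. For Acta1, a gene of this list, the diaphragm log2 genotype ratio was -3.88, and -0.65 with the highest member of each library left out.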

How the data were processed

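Muscle mononuclear cells were profiled with the 10x Genomics 3′ v3.1 kit, and 4 libraries were analysed, 1 per genotype and muscle. The authors deposited filtered count matrices of UMIs per gene and barcode, made with Cell Ranger 6.1.2 per the submitters' processing notes, which name the mm10 build. The annotation release, read depth and doublet handling are not stated there or in the labels. Gene positions are from a GRCm38 annotation.

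UMIs of members were summed per library and given as CPM. Ratios have exact conditional binomial 95% intervals, and shares have Clopper-Pearson intervals. Doublets were kept, and removal of barcodes called by Scrublet (scanpy 1.11.5) at 0.8% per 1000 barcodes was an alternative. Genes were measured at a mean of 20 CPM and 50 UMIs or more. Computation used Python 3.11.15, numpy 2.4.6, scipy 1.17.1, pandas 2.3.3 and matplotlib 3.10.9, and the intervals and ratios were tested on simulated data.

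Named genes were the 10 per direction with the largest smaller ratio over both muscles or both genotypes, 15 per direction for members over other fibroblasts, 5 per direction in a single muscle and up to 4 per gene list. Members, markers and the 41 gene lists were chosen with earlier results of these data known. A total of 12 alternatives were planned, and 4 were added after seeing the data: a mean of at least 100 CPM, no mesothelial UMIs, no myofibre UMIs (fewer than 20) and the highest cell per gene left out. A gene that the naming rule picked is not reported here.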

Additional observations from a re-analysis of the deposited data

Results flagged for a closer look

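The genotype ratios of 8 genes ran in opposite directions in the 2 muscles, lower without Ccr2 in the diaphragm and higher in the quadriceps. With 1 library per group, the difference between the muscles was not tested. The log2 ratio in the quadriceps minus that in the diaphragm was 5.69 for Thbs1, 3.59 for Has1, 3.21 for the prostaglandin synthase Ptgs2 and 3.16 for the chemokine Ccl7. It was 3.05 for the AP-1 subunit Fosb, 2.92 for Sbno2, 2.81 for the aggrecanase Adamts4 and 1.80 for the hexokinase Hk2. The same mdx5cv/Ccr2-/- quadriceps member held 22 of 29 Adamts4 UMIs and 8 of 23 Hk2 UMIs of that library. With the highest member of each library left out gene by gene, the quadriceps log2 ratio was 1.07 for Fosb, 1.35 for Sbno2, 0.50 for Adamts4 and 0.54 for Hk2. Before that, Fosb rested on only 17 UMIs in 3 mdx5cv/Ccr2-/- and 7 UMIs in 5 mdx5cv members of the quadriceps.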

How the results depend on the processing

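No paired analysis was possible because each group is 1 library. Over 16 alternatives, 157 values of named genes and lists gave 2512 comparisons. In 43 of them a gene's ratio past 1.5-fold changed sign, all given below. The cause of these moves was not tested, except that the expression filters change how many genes are counted.

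Against 196 genes higher in members than in other fibroblasts, a mean of 100 CPM left 77. Against 121 lower, it left 41, while 2000 UMIs gave 189, the stricter rule (at least 2 Pi16 and 4 Dpp4 and Sema3c UMIs) 202, the highest cell left out 182 and no gene filter 183. Against 26 genes higher without Ccr2, 4000 UMIs gave 43, 2000 UMIs 11, the stricter rule 52, rule and values on separate random parts of the UMIs 76, no macrophage UMIs 54, no gene filter 74, a pseudocount of 1 CPM 43 and a mean of 100 CPM 8. Against 25 lower, separate parts gave 53, no macrophage UMIs 42, no gene filter 69 and a mean of 100 CPM 7. Against 212 genes higher in the diaphragm, 2000 UMIs gave 77, a trimmed total 359, no gene filter 493 and a mean of 100 CPM 85. Against 159 lower, 2000 UMIs gave 29, the highest cell left out 99, no gene filter 283 and a mean of 100 CPM 44. The trimmed total moved the all-gene median log2 ratio of diaphragm over quadriceps to 0.16 in mdx5cv mice. The genotype ratio of the share in the diaphragm was 1.05 at 4000 and 0.916 at 2000 UMIs, and that in the quadriceps 0.393 at 2000 UMIs.

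Reversed log2 genotype ratios follow. At 4000 UMIs they were, in the quadriceps, Adamts4 -1.19, Cxcl14 2.41, Fdps 0.59, Hk2 -0.80, Itga1 -0.08, Tnfaip6 -0.03 and Zmat3 -0.57, and in the diaphragm Acta1 0.36 and Apoe 0.04. At 2000 UMIs they were, in the quadriceps, Adamts4 -2.47, C1qtnf3 -3.33, Fdps 1.40, Has1 -2.47, Hk2 -3.33, Krtdap 0.44, Pthlh -3.87, Sbno2 -0.12 and Zmat3 -2.47, and in the diaphragm Itga1 -1.39, Pthlh -0.50 and Slc7a2 -0.03. On separate parts they were, in the quadriceps, Angptl7 -0.64, Apoe 0.44, Ccl7 -1.72, Gadd45b 0.06, Hk2 -0.41, Krtdap 0.83, Ptgs2 -0.30 and Zmat3 -0.20, and in the diaphragm Acta1 0.80, Dio2 -1.43 and Ttn 0.35. Under the stricter rule they were Ccl7 -0.98, Cxcl14 0.10, Fosb -0.06 and Ptgs2 -0.64 in the quadriceps and Dio2 -0.33 in the diaphragm. In the quadriceps Ccl2 was -0.19 with no macrophage UMIs, and Ccl7 was -1.37 and Ptgs2 -0.03 with the highest cell left out. The ratio of diaphragm over quadriceps reversed for Cxcl14, to 0.56 in mdx5cv mice at 4000 UMIs, and at 2000 UMIs to 2.04 in mdx5cv/Ccr2-/- and 2.08 in mdx5cv mice.

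Among list medians that were short of 1.5-fold, that of the fibrillar collagens in the quadriceps turned to as low as -0.44 and that of the immediate early genes there to -0.14.

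The number of members limits the quadriceps most, with 51 in mdx5cv/Ccr2-/- and 68 in mdx5cv mice, and depth per member limits the mdx5cv diaphragm, with a median of 7972 UMIs.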
